A study of Homo sapiens with 4 samples.

Results

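Heat shock proteins and their DNAJ partners were taken from the expression table by name, as rows whose symbol starts with HSP followed by a digit or a letter from A to H, or with DNAJA, DNAJB or DNAJC followed by a digit, on the main chromosome sequences. The rule found 90 of 24934 gene rows. Of these, 73 belong to chaperone families, with 13 HSP70, 3 HSP110, 3 HSP90, 7 small HSP, 2 chaperonin, 4 DNAJA, 13 DNAJB and 28 DNAJC genes. The other 17 match by name but lie outside these families, and include pseudogenes, read-through and antisense transcripts, the HSP70 cofactor gene HSPBP1 and genes of other function. A further 12 rows for HSPA1A, HSPA1B and HSPA1L on alternate haplotype contigs were listed at 0 in every library and were not counted.

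All 4 libraries came from HEK-293, an established human embryonic kidney cell line, collected 48 h after transfection with siRNA at 10 nM. The siRNAs si4 and si5 target ZSCAN5A, si1 targets ZSCAN5B, and the control siRNA was scrambled. Each siRNA gave 1 library, so no difference below has a replicate check, and si4 and si5 are separate siRNAs to the same gene. Expression is given as FPKM (fragments scaled for transcript length and for mapped fragments), as deposited. A row counted as past the limit when its ratio exceeded 1.5-fold, neither side was at 0, and 1 FPKM was reached in 1 or more of the libraries compared. Where 4 values follow each other they are in the order si4, si5, si1 and control, and where 2 log2 ratios follow each other the first is for ZSCAN5A (mean of si4 and si5 over the control) and the second for si1.

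Chaperones bind unfolded or partly folded proteins and help them reach or keep their native form. HSP70 proteins do this in cycles of ATP hydrolysis that J-domain (DNAJ) proteins start and HSP110 and other exchange factors end, HSP90 acts later on more structured clients, and HSP60 with HSP10 folds proteins inside mitochondria. Many of these genes are transcribed at a high rate in growing cells and are raised further by heat shock factors, which bind arrays of inverted GAA units (heat shock elements), while chaperones of the endoplasmic reticulum (ER) respond to an ER stress element.

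RefSeq start windows (250 bases before to 50 after a start, GRCh38.p14) were matched for 71 of the 90 members, with 92 windows in all. A heat shock element of 3 units, written GAANNTTCNNGAA or TTCNNGAANNTTC and searched on both strands, occurred in 172 of 35116 windows (0.49%) of all genes. Among the members it occurred in windows of 7 genes, namely DNAJA1, DNAJB6, HSP90AA1, HSP90AB1, HSPA6, HSPA8 and HSPD1. These elements are shown because several of the most abundant chaperones carry them, each on the strand of its gene, 5′ to 3′, with the element in capitals. They lie at chr14:102087102-102087150 for HSP90AA1, chr6:44247760-44247808 and chr6:44247813-44247861 for HSP90AB1, chr2:197500050-197500090 for HSPD1, chr11:123062161-123062209 for the HSPA8 element nearer the start, chr9:33025268-33025296 for DNAJA1, and chr7:157336855-157336903 for DNAJB6.
HSP90AA1: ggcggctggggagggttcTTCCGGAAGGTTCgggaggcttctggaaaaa
HSP90AB1, farther from the start: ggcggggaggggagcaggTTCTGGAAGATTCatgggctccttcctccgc
HSP90AB1, nearer the start: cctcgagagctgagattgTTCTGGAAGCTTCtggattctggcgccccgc
HSPD1: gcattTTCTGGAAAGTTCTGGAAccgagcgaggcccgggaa
HSPA8: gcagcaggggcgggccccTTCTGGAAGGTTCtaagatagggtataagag
DNAJA1: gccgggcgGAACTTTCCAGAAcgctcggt
DNAJB6: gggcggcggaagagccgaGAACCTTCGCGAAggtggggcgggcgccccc

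In HSPD1 overlapping matches made an array of 18 bases. The element of HSP90AA1 lay 88 to 76 bases before the start, and that of HSPA8 shown here 55 to 43 bases before it. In DNAJA1 the match stood after the start, at bases 4 to 16. The ER stress element, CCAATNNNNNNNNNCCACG on either strand, was far rarer. It occurred in 27 of the 35116 windows (0.0769%), and among the members in HSPA5 and HSP90B1 alone, the main HSP70 and HSP90 of the ER. They are shown on minus-strand chr9:125241373-125241427 for HSPA5 and plus-strand chr12:103930198-103930252 for the more distant of the HSP90B1 matches.
HSPA5: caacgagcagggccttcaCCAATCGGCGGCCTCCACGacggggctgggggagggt
HSP90B1: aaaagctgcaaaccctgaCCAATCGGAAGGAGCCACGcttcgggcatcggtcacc

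The 250 bases before the HSP90AA1 start are given whole, at chr14:102087045-102087294 on the minus strand. HSP90AA1 was chosen because it had the highest log2 ratio to the control of all expressed heat-inducible members in both comparisons.
HSP90AA1: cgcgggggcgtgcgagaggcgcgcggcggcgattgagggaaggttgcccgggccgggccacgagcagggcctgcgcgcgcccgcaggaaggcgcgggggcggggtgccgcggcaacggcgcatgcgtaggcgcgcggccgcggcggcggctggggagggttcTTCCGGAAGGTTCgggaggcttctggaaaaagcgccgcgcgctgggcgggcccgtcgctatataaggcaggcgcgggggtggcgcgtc

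A few facts of the whole table bear on every value. ZSCAN5A stood at 30.2% of the control with si4 and 29.5% with si5, and at 105% with si1. ZSCAN5B, at 0.0948 FPKM with si1 and 0.0903 FPKM in the control, was at 105% of the control with si1 (exact Clopper-Pearson 95% interval for counting error 48.6% to 228%), so si1 is called below the library labelled ZSCAN5B knockdown. With si4 and si5 ZSCAN5B was at 36.6% and 73.4% of the control, from 0.0331 and 0.0663 FPKM. No counting interval was made for these weak values. By qRT-PCR the paper reported ZSCAN5B above the control with si4, near it with si5 and reduced with si1. It also reported reduced ZSCAN5B protein after ZSCAN5B knockdown, by Western blot. Transcripts of the paralog ZSCAN5D were below the control with si4 and si5, and less so with si1, in its qRT-PCR. Ratios given for ZSCAN5A are thus named after the siRNA target, which was not the only gene of the family reported lower. Steps between weak FPKM values put the depth of si4, si5 and si1 at 1.09, 1.54 and 1.02 times the control. With the longest transcript length of each gene this came to roughly 57100000, 80700000, 53100000 and 52300000 fragments. None of these figures falls in the range of reads per sample that the paper gives. They estimate the fragments behind the FPKM values and not the reads obtained, so the measures are unlike and no discrepancy can be read from them. HEK-293 markers were present, with VIM between 270 and 359 FPKM and KRT18 between 70.4 and 86.2 FPKM, while HBB was listed at 0 in every library and PTPRC was at most 0.00736 FPKM. The FPKM of all rows summed to between 1.101 and 1.119 times the control in the siRNA libraries. Scaling each library to the same sum therefore moved the median log2 ratio of all rows from -0.02 to -0.18 for ZSCAN5A and from -0.01 to -0.15 for the library labelled ZSCAN5B knockdown, and the genes and lists described below whose direction turns under this scaling are named there. In bulk RNA a change in RNA per cell and a change in the share of cells cannot be told apart.

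Of the 90 members, 64 reached 1 FPKM in at least 1 library, and 59 of these are chaperone family genes. A further 21 were above 0 but under 1 FPKM in every library, and 5 were listed at 0 throughout (the J protein gene DNAJB8 and the pseudogenes DNAJA1P5, HSP90AA4P, HSP90AA6P and HSP90B3P). The 5 most abundant members were HSP90AB1, HSP90AA1, HSPD1, HSP90B1 and HSPA8. They made up 48.7% of the summed FPKM of all members in the control and between 51.1% and 52.5% in the siRNA libraries. All members together summed to 4676, 4279, 4846 and 4005 FPKM, or 0.856%, 0.793%, 0.902% and 0.821% of the library. The share was thus lowest with si5 and highest with si1, with the control between the ZSCAN5A siRNAs.

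**Figure D1:**
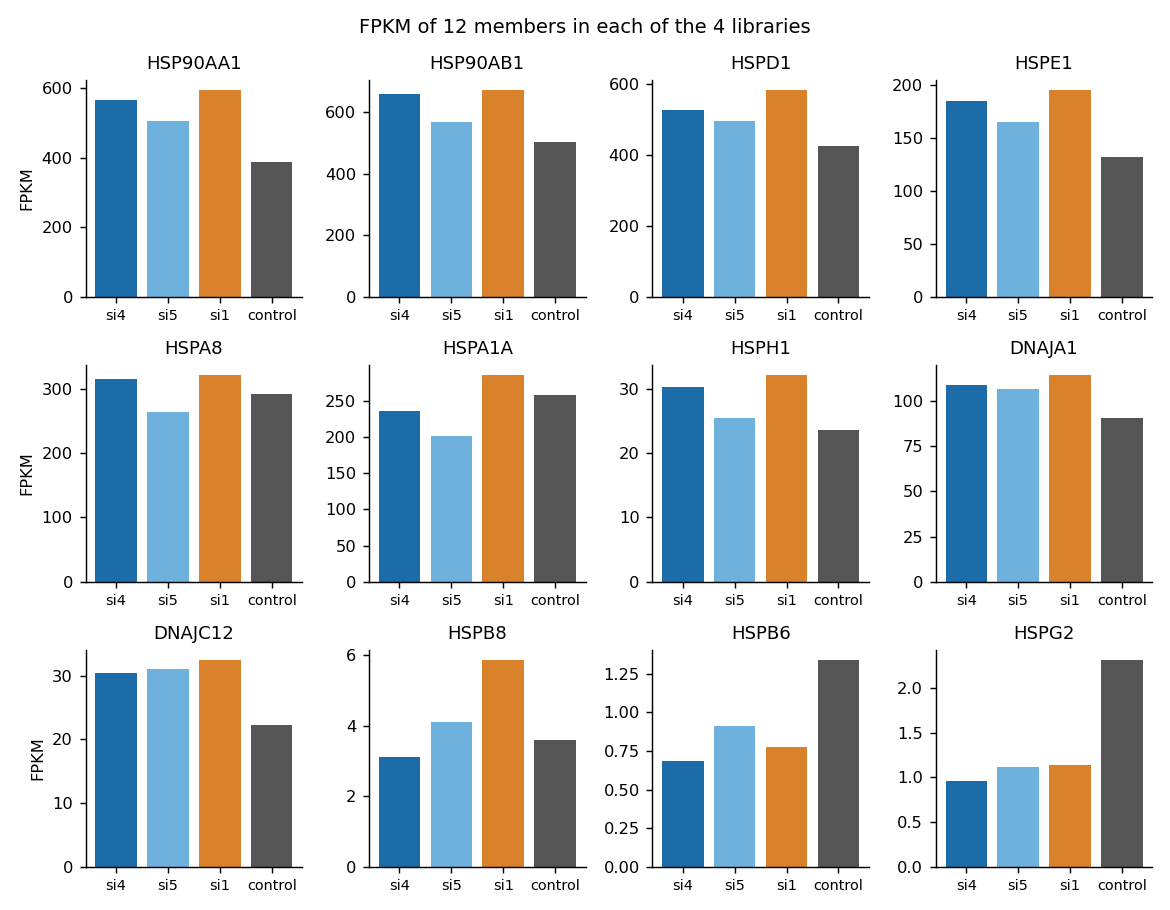
Bars give the deposited FPKM of 12 members in the libraries of si4, si5, si1 and the scrambled control, 1 library each and so without error bars, on axes that start at 0. As deposited, HSP90AA1, HSP90AB1, HSPD1, HSPE1, HSPH1, DNAJA1 and DNAJC12 are lowest in the control, HSPB6 and HSPG2 are highest there, and HSPB8 is highest with si1 at 5.86 FPKM.

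With si4 and si5 averaged against the control, 2 of 64 members that met the expression limit passed 1.5-fold, both lower (HSPB6 and HSPG2). HSPB6 is the 1 member that reached 1 FPKM in the control alone, so it could enter only as lower and is given as a description. None was past the limit upward. Over all 12993 rows tested, 3.11% were past it downward and 0.677% upward. With si1 against the control, HSP90AA1 and HSPB8 were past the limit upward and HSPB6 and HSPG2 downward, against 0.844% of 12921 rows upward and 3.17% downward. The control library is shared by these comparisons, whose values are therefore not independent of each other. Of the 64 members, 41 were higher by any amount for ZSCAN5A, against 46.7% of all rows, and the members' median log2 ratio was 0.06 (quartiles -0.12 and 0.20). For si1, 42 of 64 were higher against 48.5% of all rows, with a median of 0.07 (quartiles -0.07 and 0.25). After scaling to equal sums these directions turned for members, and the whole table moved lower. Then 20 (31.2%) and 25 (39.1%) of 64 members were higher, beside 21.2% and 26% of all rows. Member medians were -0.10 and -0.07, beside -0.18 and -0.15. Under median-ratio scaling 44 and 43 members were higher, beside 53.4% and 52.1% of all rows. Under upper-quartile scaling 43 and 42 were higher, beside 50.7% and 50.3%.

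The control was the lowest of the 4 libraries for 27 of the 64 members (42.2%), against 30.1% of all rows, and the highest for 12 members (18.8%), against 36.2%. The si1 library was the highest for 22 members (34.4%), against 22% of all rows. The si4 library was highest for 25 members (39.1%) against 25.7% of all rows, and si5 for 5 (7.81%) against 16.1%. Of 63 members, 45 (71.4%) were lower in si5 than in si4, against 54.6% of all rows, and none differed by over 1.5-fold, against 2.53% of all rows past the limit in either direction.

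The share of rows above the control moved with expression level. Among all rows with a mean of 50 FPKM or above, 80.6% of 1529 were higher for ZSCAN5A (median log2 ratio 0.16) and 79.2% for si1 (median 0.16). Of the 18 members at that level, 13 were higher for ZSCAN5A, with a median of 0.17, and all 18 for si1, with a median of 0.18. Of 22 members between 10 and 50 FPKM, 17 (77.3%) were higher for ZSCAN5A and 16 (72.7%) for si1, beside 54.9% and 55.2% of all rows, with medians of 0.09 and 0.08 beside 0.02 and 0.03. Of 24 members under 10 FPKM, 11 were higher for ZSCAN5A (median -0.08) and 8 for si1 (median -0.06), beside 32.7% and 36.2% of all rows at that level. Set against the 200 rows nearest in level, the median difference of the members was 0.03 in both comparisons. Of the 64 members, 37 and 36 then stood above their neighbours.

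**Figure D2:**
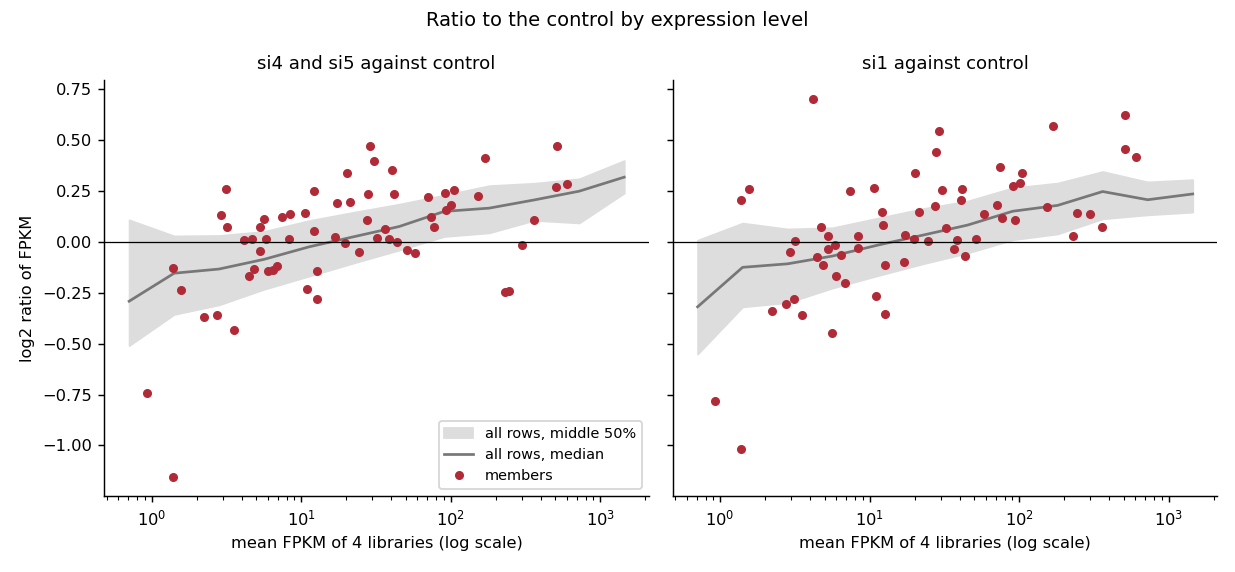
Points are the 64 expressed members, with the mean FPKM of the 4 libraries on a log axis and the log2 ratio to the control on the vertical axis, for si4 and si5 averaged (left) and si1 (right). The grey line and band are the median and the middle 50% of all tested rows in steps of 2-fold in level, and both are higher at higher levels, with most members inside or near the band.

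HSP90 genes were the most abundant family and were higher than the control in all 3 siRNA libraries on the deposited scale. HSP90AA1 (hg19 chr14:102547075-102606086), the inducible cytosolic HSP90, was at 568, 505, 595 and 387 FPKM. Its log2 ratio was 0.47 for ZSCAN5A (1.39-fold) and 0.62 for si1 (1.54-fold), the latter past the limit as deposited but not after scaling to equal sums, where it was 0.48. The rows nearest in level had medians of 0.24 and 0.23, so HSP90AA1 stood 0.23 and 0.39 above them. HSP90AB1 (chr6:44214849-44221614), the constitutive cytosolic form, was at 661, 569, 673 and 505 FPKM in the same order, with log2 ratios of 0.28 and 0.42. The control was the lowest of the 4 for both genes. HSP90B1, the HSP90 of the ER, was at 382, 354, 360 and 342 FPKM. Its log2 ratios of 0.11 and 0.07 lay below the medians of 0.22 of its neighbours in level, and it turned lower than the control after scaling to equal sums. The ratio of HSP90AB1 to HSP90AA1 in FPKM was 1.305 in the control and 1.13 to 1.16 in the siRNA libraries.

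HSP60 and HSP10, the mitochondrial chaperonin and its lid, were higher than the control in every siRNA library and under each scaling tried. HSPD1 (chr2:198351308-198364998) was at 528, 495, 582 and 425 FPKM. HSPE1 (chr2:198364721-198368187) was at 185, 165, 195 and 132 FPKM. Log2 ratios were 0.27 and 0.46 for HSPD1 and 0.41 and 0.57 for HSPE1, for ZSCAN5A and si1 in turn. Both genes share a start region, their listed loci overlap by 278 bases, and the ratio of HSPD1 to HSPE1 was 3.23 in the control and 2.85 to 3.01 elsewhere. Neither passed 1.5-fold as deposited, while HSPE1 with si1 did under median-ratio scaling. HSPD1 lay close to its neighbours in level for ZSCAN5A (0.03 above), and HSPE1 stood 0.25 above them, with 0.22 and 0.40 for si1.

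HSP70 genes differed among themselves. Of 10 expressed members, 5 were higher than the control for ZSCAN5A (median log2 ratio -0.00) and 9 for si1 (median 0.14), beside 46.7% and 48.5% of all rows. After scaling to equal sums 3 and 5 were higher, beside 21.2% and 26% of all rows. None passed 1.5-fold. HSPA8, the constitutive cytosolic HSP70, was at 315, 264, 322 and 292 FPKM, so the control lay between the ZSCAN5A siRNAs. Its ratio of -0.01 for ZSCAN5A was 0.02 under median-ratio scaling, and the si1 ratio of 0.14 was -0.00 after scaling to equal sums. HSPA1A (chr6:31783291-31785719) and HSPA1B (chr6:31795512-31798031) encode the major stress-inducible HSP70. HSPA1A was at 237, 201, 286 and 259 FPKM. HSPA1B was at 226, 194, 254 and 249 FPKM. Both were lower than the control with each ZSCAN5A siRNA, with log2 ratios of -0.24 and -0.25, whereas the rows nearest in level had a median of 0.20. With si1 the ratios were 0.14 and 0.03, also below the neighbours' median of 0.21, and that of HSPA1B turned to -0.11 after scaling to equal sums.

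The copies share 72.3% of the 101-base windows of HSPA1A, so the split of fragments between them is uncertain. Their sum was 463, 395, 540 and 508 FPKM. HSPA6, a strictly stress-inducible HSP70 and the only member with a 3-unit heat shock element under the expression limit, stayed between 0.197 and 0.302 FPKM in all 4 libraries, with 0.220 in the control. HSP70 proteins of organelles stood slightly above the control. HSPA5 (BiP, in the ER) was at 97.3, 96.2, 93.7 and 86.8 FPKM, with log2 ratios of 0.16 and 0.11, the latter -0.03 after scaling to equal sums. HSPA9 (mortalin, in mitochondria) was at 162, 159, 154 and 137 FPKM, with log2 ratios of 0.23 and 0.17. HSPA13, a microsomal HSP70-like protein, had the highest ratio of the family for ZSCAN5A (log2 ratio 0.35), at 44.5, 44.1, 40.02 and 34.6 FPKM. HSPA2, an HSP70 abundant in testis, was lower in all siRNA libraries, at 6.02, 5.71 and 5.77 FPKM against 6.47.

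HSP110 genes, exchange factors for HSP70, were lowest in the control for all 3 members on the deposited scale. HSPH1 was at 30.2, 25.5, 32.1 and 23.7 FPKM, with log2 ratios of 0.24 and 0.44. HSPA4 was at 74.5, 70.0, 85.5 and 66.2 FPKM, with ratios of 0.13 and 0.37. HSPA4L was at 13.6, 12.7, 11.7 and 11.1 FPKM, and its ratios were 0.25 and 0.09. After scaling to equal sums, HSPA4 for ZSCAN5A and HSPA4L for si1 turned lower than the control.

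Small HSP genes, which hold unfolded proteins without ATP, held 2 of the 3 chaperone genes past the limit, and only 3 of 7 were expressed at 1 FPKM. HSPB8 (chr12:119616595-119632551), a partner of BAG3 in chaperone-assisted autophagy, was at 3.13, 4.10, 5.86 and 3.60 FPKM. The si1 value was 1.63-fold the control and 1.62-fold the ZSCAN5A mean, the 1 member of 63 past the limit in the latter comparison, against 1.31% of all rows. That call rested on si4, since si1 was 1.87-fold si4 but 1.43-fold si5, which is under the limit. By transcript length these values correspond to about 579 fragments with si1 and 350 in the control, a counting interval of 1.42 to 1.86 for the ratio. The ZSCAN5A siRNAs lay on opposite sides of the control. With equal sums the log2 ratios were -0.14 and 0.57, the first turned from 0.01 and the second under the limit. HSPB6 (chr19:36245467-36247930) was at 0.687, 0.909, 0.778 and 1.34 FPKM in the order si4, si5, si1 and control. It stood at 59.7% of the control for ZSCAN5A and 58.2% for si1, on about 57, 107, 60 and 102 fragments, and without si4 it was not past the limit (log2 ratio -0.56). Its place among the tested members came from the control alone. HSPB1 (HSP27), the most abundant small HSP, was at 51.6, 59.8, 63.5 and 57.8 FPKM, so the ZSCAN5A siRNAs again lay on either side of the control, and the si1 ratio of 0.14 turned to -0.00 after scaling to equal sums.

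J proteins of the DNAJA and DNAJB classes, which carry substrates to HSP70, held no gene past the limit as deposited. Of 9 expressed DNAJB genes 7 were higher for ZSCAN5A and 4 for si1, beside 46.7% and 48.5% of all rows. After scaling to equal sums 1 and 2 were higher, beside 21.2% and 26% of all rows. DNAJA1, the main cytosolic DNAJA, was at 109, 107, 114 and 90.5 FPKM, with log2 ratios of 0.25 and 0.34 and the control lowest. DNAJA2 was at 31.6, 32.7, 33.2 and 31.7 FPKM, and DNAJA3, its mitochondrial relative, at 38.9, 36.3, 35.1 and 36.0 FPKM, and both were lower than the control in each comparison after scaling to equal sums. DNAJB1 (HSP40), the heat-inducible partner of HSPA1A, was at 45.3, 43.0, 42.0 and 44.1 FPKM, with log2 ratios of 0.00 and -0.07, the first -0.15 after that scaling. DNAJB6, a suppressor of protein aggregation, was at 79.2, 75.8, 80.1 and 73.8 FPKM, and turned lower than the control after scaling to equal sums. DNAJB4, also heat inducible, was at 7.34, 7.51, 8.13 and 6.82 FPKM, and its ratio for ZSCAN5A turned to -0.03 after that scaling. Of the ER J proteins, DNAJB11 lay between 37.2 and 39.9 FPKM, and its log2 ratios of 0.01 and 0.01 turned to -0.14 and -0.13 after scaling to equal sums. DNAJB9 (ERdj4), a target of the ER stress response, was at 11.5, 12.9, 11.6 and 14.8 FPKM, with log2 ratios of -0.28 and -0.36 and the control highest. DNAJB12, an ER membrane J protein, was likewise highest in the control, at 12.5 FPKM against 10.3, 10.96 and 10.4. DNAJB14, its close relative, was at 5.95, 6.50, 4.22 and 5.75 FPKM, with log2 ratios of 0.11 and -0.45. With equal sums these were -0.04, turned, and -0.59, past the limit.

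DNAJC genes, a mixed class with J domains fixed to many sites in the cell, were evenly split. Of 26 expressed members, 13 were higher and 13 lower for ZSCAN5A (median log2 ratio 0.01) and 14 and 12 for si1 (median 0.01). Of all rows 46.7% and 48.5% were higher. None passed the limit. After scaling to equal sums 7 and 8 DNAJC genes were higher, with medians of -0.15 and -0.13, beside 21.2% and 26% of all rows, with medians of -0.18 and -0.15. DNAJC12, a partner of the aromatic amino acid hydroxylases, had the highest ratio, at 30.4, 31.1, 32.4 and 22.2 FPKM. Its log2 ratios of 0.47 and 0.55 stood 0.43 and 0.49 above the rows nearest in level. DNAJC8, which associates with splicing factors, was at 103, 102, 110 and 90.1 FPKM, and DNAJC7, a link between HSP70 and HSP90, at 98.8, 90.2, 96.5 and 79.8 FPKM. DNAJC10, an ER reductase, was at 45.4, 40.6, 43.8 and 36.6 FPKM. The control was lowest for each of these 4, also after scaling to equal sums. DNAJC9, a histone chaperone, was at 47.0, 54.2, 52.6 and 51.97 FPKM with no common direction, and its si1 ratio of 0.02 turned to -0.12 after scaling to equal sums. At the low end DNAJC16 had log2 ratios of -0.43 and -0.36, DNAJC28 of -0.37 and -0.34, and DNAJC27 of -0.36 and -0.30, all from controls under 5 FPKM. DNAJC4 was at 6.79, 6.83, 6.43 and 7.39 FPKM.

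**Figure D3:**
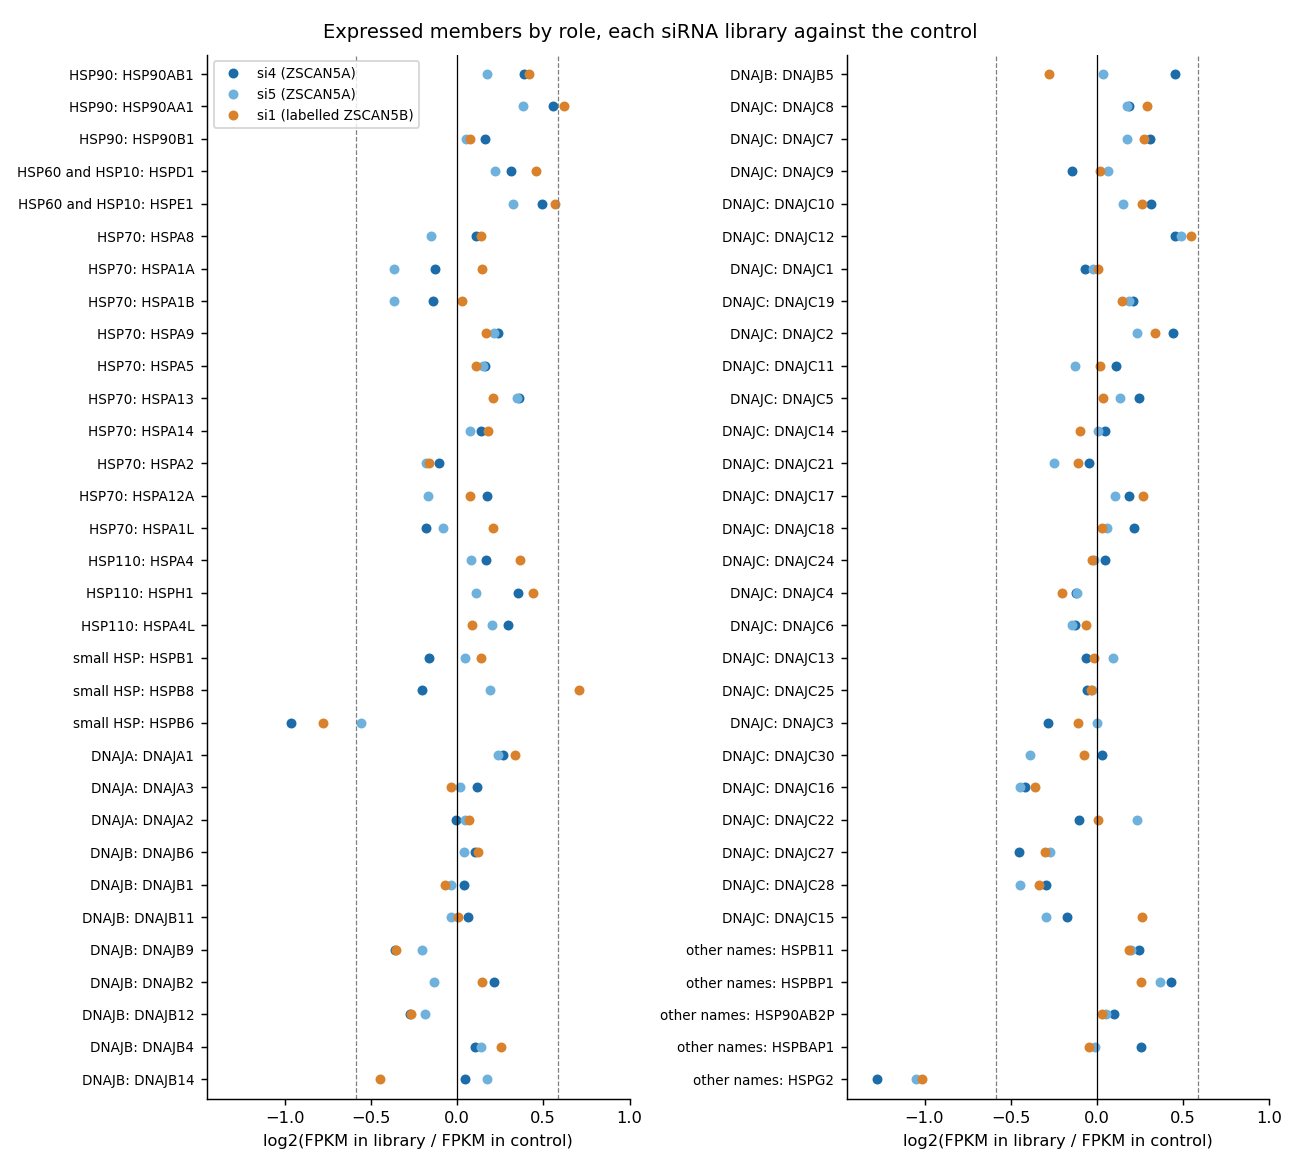
Each row is 1 of the 64 expressed members, ordered by family and then by level, and points give the log2 ratio of FPKM in the si4, si5 and si1 libraries to the control (1 library each), with dashed lines at 1.5-fold. HSP90, HSP60, HSP10 and HSP110 points lie right of 0 as deposited, HSP70 and DNAJC points fall on both sides, and HSPG2 and HSPB6 lie farthest left.

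The heat-inducible list cuts across these families. Its 15 genes are HSPA1A, HSPA1B, HSPA6, HSPA8, HSPA4L, HSPH1, HSP90AA1, HSP90AB1, HSPB1, HSPD1, HSPE1, DNAJA1, DNAJA4, DNAJB1 and DNAJB4, so forms that are mainly constitutive (HSPA8, HSP90AB1) are counted, and 13 were expressed. For ZSCAN5A 9 of 13 were higher (median log2 ratio 0.24), and for si1 12 of 13 (median 0.25), against 46.7% and 48.5% of all rows. After scaling to equal sums 7 and 8 of 13 were higher, beside 21.2% and 26% of all rows, and HSPA1B, HSPA8, HSPB1 and DNAJB1 were lower in both comparisons. The list is mostly made of abundant genes, for which the shares of all rows at that level were given above. By compartment, 7 of 12 ER members were higher in each comparison (medians 0.06 and 0.01), beside the same 46.7% and 48.5% of all rows. Of 9 mitochondrial members 5 and 6 were higher (medians 0.07 and 0.15). All 9 were lower in si5 than in si4, beside 54.6% of all rows. The ER direction turned after scaling to equal sums, where the whole table moved lower. Then 3 and 2 of 12 ER members were higher (medians -0.09 and -0.13), beside 21.2% and 26% of all rows (medians -0.18 and -0.15). Of the mitochondrial members 4 and 5 of 9 were higher (medians -0.09 and 0.01).

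Of the 6 expressed members with a 3-unit heat shock element at a start, 5 were higher for ZSCAN5A (median log2 ratio 0.26, from -0.01 for HSPA8 to 0.47 for HSP90AA1) and 6 for si1 (median 0.38, lowest 0.12 in DNAJB6). The 12 with 2 units alone had medians of -0.09 and 0.14, and the 40 with neither of 0.06 and 0.02. Classes rest on exact matches in a gene's own windows. HSPE1, which shares a start region with HSPD1, thus falls among those with neither, and has their highest si1 ratio (0.57). The 2-unit motif, GAANNTTC or TTCNNGAA, occurs in 13.5% of all windows. The classes differ in level as well, with a median of 403 FPKM for the first, 9.87 for the second and 14.8 for the third, and the difference was smaller beside rows of like level. Against the 200 rows nearest in level the median differences were 0.03 and 0.17 for the 3-unit members (4 of 6 above in each comparison), -0.07 and 0.02 for the 2-unit members, and 0.03 and 0.03 for those with neither. HSPA8 and DNAJB6 were lower than the control in both comparisons after scaling to equal sums. The ER stress element members HSPA5 and HSP90B1 had log2 ratios between 0.07 and 0.16 as deposited.

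**Figure D4:**
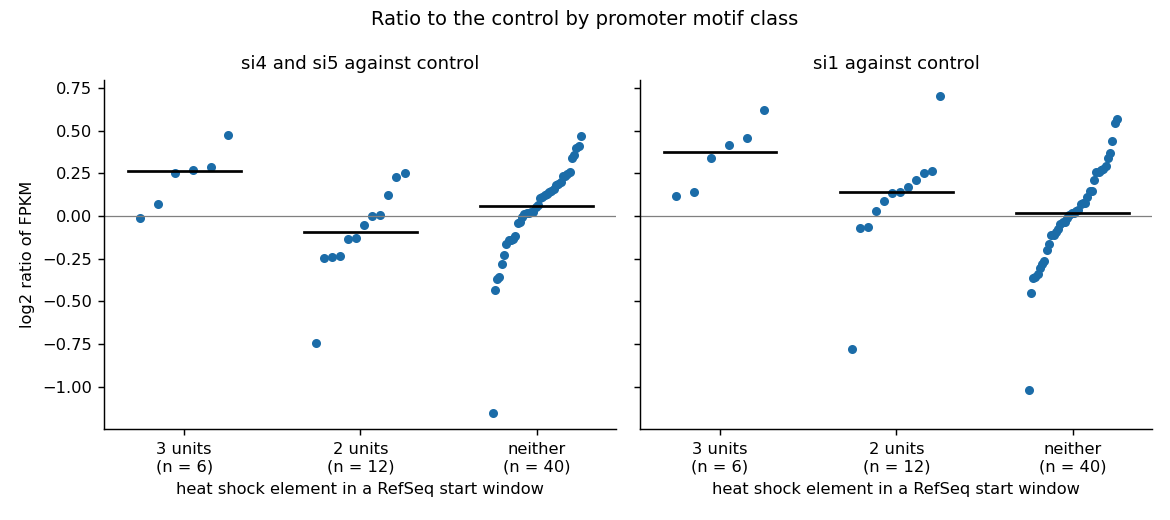
Points are expressed members with a RefSeq start window, grouped by whether a window holds a 3-unit heat shock element (6 genes), a 2-unit one alone (12) or neither (40), with log2 ratios to the control for si4 and si5 averaged (left) and si1 (right), and bars at the medians. Medians of the first group are 0.26 and 0.38 as deposited and 0.03 and 0.17 against rows of like level, HSPA8 and DNAJB6 are lower than the control in both comparisons after scaling to equal sums, and the groups overlap.

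Among genes matched by name alone, HSPG2 had the lowest ratio of all expressed members. HSPG2 (chr1:22148737-22263750) encodes perlecan, a heparan sulfate proteoglycan of basement membranes and not a chaperone. It was at 0.955, 1.12, 1.14 and 2.31 FPKM, or 44.9% of the control for ZSCAN5A and 49.4% for si1. All 3 siRNA libraries were close together and below the control. HSPBP1, an exchange factor for HSP70, was at 34.1, 32.6, 30.2 and 25.3 FPKM, and HSPB11, an intraflagellar transport subunit, at 75.2, 73.0, 72.3 and 63.7 FPKM. HSP90AB2P, a pseudogene, lay between 5.14 and 5.50 FPKM, lowest in the control as deposited and lower than the control in both comparisons after scaling to equal sums. None of its 101-base windows was shared with HSP90AB1.

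Weak members rest on few fragments. DNAJC5G had 11, 20, 23 and 28 fragments, and the exact counting intervals of the ratios to the control were 0.162 to 0.746, 0.247 to 0.851 and 0.445 to 1.46. HSPB3 had 3, 3, 2 and 4 fragments and HSPB7 1, 5, 1 and 1, at which a difference was not detectable. DNAJA4, listed as heat inducible, was at 0.0587 FPKM with si4 and 0.0252 to 0.0297 FPKM in the others.

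Among 47 other chaperone-system genes (heat shock factors, co-chaperones of HSP70 and HSP90, and chaperones with other names), 44 were expressed and none passed 1.5-fold in either comparison. For ZSCAN5A 31 of 44 were higher (median log2 ratio 0.09), and for si1 30 (median 0.08), beside 46.7% and 48.5% of all rows. With equal sums 15 and 21 were higher, with medians of -0.07 and -0.05, beside 21.2% and 26% of all rows, with medians of -0.18 and -0.15. These genes were not set against rows of like level, and the share above the control moved with level in the whole table. The largest changes for ZSCAN5A were AHSA2 at -0.39, HSF4 at -0.39 and CDC37L1 at -0.39. For si1 they were GRPEL1 at 0.48, the exchange factor of HSPA9, CDC37L1 at -0.44, and PPID at 0.42, a cyclophilin that binds HSP90. HSF1, the main heat shock factor, was at 20.5, 18.3, 19.2 and 20.9 FPKM (log2 ratios -0.11 and -0.13). BAG3, a heat-inducible HSP70 co-chaperone and the partner of HSPB8, was highest in the control, at 15.1 FPKM against 13.1, 12.01 and 13.7.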

How the data were processed

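RNA of 4 HEK-293 cultures was sequenced, 1 library per siRNA. The submitters' processing notes name CASAVA 1.8.2, Trimmomatic 0.30, TopHat2 2.1.0 and Cufflinks 2.2.1 with hg19, and the labels and the methods name different stranded mRNA kits. The authors deposited 1 table of FPKM values, used here without further normalization. It holds 0 columns of other samples. Loci start from 0 in the table and are given from 1 here. Ratios set si1, or the average of both ZSCAN5A libraries, over the control, and 1 library per siRNA allows no replicate test. limma 3.58.1 (R 4.3.3) on log2(FPKM + 1) was an alternative. Relative depth was read from weak genes whose 4 values stood in whole-number proportions (74.3% of 1648 rows under 0.1 FPKM, tolerance 0.05%, no number above 40). Depth in fragments also used the longest GENCODE transcript of these genes and is approximate. Fragments of stronger genes came from the longest GENCODE transcript and are approximate, and intervals cover counting error only. Scripts (Python 3.11.15, NumPy 2.4.6, pandas 2.3.3, SciPy 1.17.1, matplotlib 3.10.9) were tested on simulated data.

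Members, lists and tests were chosen with earlier results of these data known. The values of 4 libraries are given for members past the limit in any comparison, the 3 most abundant of each family, the 5 largest rises and falls among members at 5 FPKM or above, and the heat-inducible list. Other members are named where their family is described, other pathway genes for the 3 largest changes per comparison, and HSF1, BAG3 and DNAJC5G were chosen after their values were seen. Alternatives covered the expression limit, the fold limit, pseudocounts, scaling, each ZSCAN5A siRNA alone, summed rows and a length and GC correction. Scaling to equal FPKM sums and the comparison with rows of like level were added after seeing the data.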

Additional observations from a re-analysis of the deposited data

Results flagged for a closer look

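In 9 of 64 members, si4 and si5 both stood on one side of the control and si1 on the other, as in 1317 of 12983 rows of the table. The difference was not tested, with 1 library per siRNA, and after scaling to equal FPKM sums 3 of the 9 (HSPA1A, HSPA1L and DNAJC15) still had this pattern. The sign of the log2 ratio of si1 to the mean of si4 and si5 is set by this choice of genes. It is therefore no further support for a difference. The ratio was 0.38 for HSPA1A, 0.28 for HSPA1B and 0.34 for HSPA1L. These are 3 neighbouring HSP70 genes of chromosome 6 that, as deposited, were lower than the control with both ZSCAN5A siRNAs and higher with si1. HSPA1B was lower with si1 too (-0.11) after scaling to equal sums, where HSPA1A with si1 was at 0.00. HSPA1A and HSPA1B share most of their sequence and are not independent. HSPA1L rests on about 193 to 292 fragments. The counting intervals of its ratios to the control were 0.72 to 1.08, 0.79 to 1.14 and 0.95 to 1.40 for si4, si5 and si1. Its direction is thus not resolved in any of these libraries. The ratio was 0.50 for DNAJC15, a mitochondrial J protein. It was -0.56 for DNAJB14 and -0.54 for DNAJB5, which as deposited were higher than the control with both ZSCAN5A siRNAs and lower with si1. After scaling to equal sums si4 and si5 lay on opposite sides of the control for both, at -0.11 and 0.03 for DNAJB14 and 0.29 and -0.11 for DNAJB5. In DNAJB5 si4 was at 4.08 FPKM, si5 at 3.05, si1 at 2.45 and the control at 2.98. The other 3 were smaller, at -0.10 for DNAJA3, -0.12 for DNAJC14 and 0.053 for DNAJC1.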

How the results depend on the processing

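Of 456 values of named members under alternatives, 352 moved by less than their spread and 104 by more. None past the limit changed sign. For pseudocounts that outcome was fixed, since they cannot change a sign. It was fixed for scaling as well, whose factors of 0.969 to 1.119 shift a ratio by less than the limit. The spread was that between si4 and si5 for ZSCAN5A, and the reach of the counting interval for si1. Values from si4 alone or si5 alone lie within the ZSCAN5A spread by construction, and a pseudocount hardly moves an abundant gene. Their parts of the 352 therefore say nothing of stability. Over named members in all, 32 ratios changed sign, 22 of them after scaling to equal sums. The count of members past the limit for ZSCAN5A, 2 as reported, was 8 without an expression limit, 0 at a limit of 5 FPKM, 1 at 2-fold, 11 at a fold limit of 25%, 1 with a pseudocount of 1, 1 relative to rows of like level and 0 by limma, and 1 to 2 with a single ZSCAN5A siRNA. For si1, 4 as reported, it was 10, 2, 1, 16, 2, 2 and 0 under the same settings. limma found no member at an adjusted p under 0.05 (smallest 0.385 and 0.468, 10 and 11 of 64 members at an unadjusted p under 0.05, or 15.6% and 17.2%, beside 12.6% and 10.6% of all rows). Its spread comes from si4 and si5 alone (1 residual degree of freedom), and the si1 and control libraries are assumed to vary like them. For si1 against ZSCAN5A, 1 as reported, the count was 10 without an expression limit, 0 at 2-fold, 6 at 25% and 0 with a pseudocount of 1, and 1 to 2 with a single ZSCAN5A siRNA (HSPB8 and DNAJB5 against si4, and DNAJB14 in place of HSPB8 against si5). For si5 against si4, 0 as reported, it was 5 without a limit and 6 at 25%. The median log2 ratio for ZSCAN5A was 0.047 to 0.104 with a single siRNA, and that for si1 was 0.114 at 5 FPKM and 0.033 without an expression limit. Median-ratio scaling gave medians of 0.097 and 0.095, and upper-quartile scaling 0.082 and 0.083, on the same side as deposited. Scaling to equal sums reversed both medians, to -0.095 and -0.066, and left 15 members lowest and 30 highest in the control. At 5 FPKM 7 were highest. The cause was not tested. No paired analysis was possible because the groups share no second replicate number. Counts under about 20 fragments limit the weak members.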
